A study of Mus musculus with 72 samples.

Results

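Naive pluripotency transcription factors are described here by 10 genes chosen by symbol, namely Klf2, Klf4, Klf5, Esrrb, Tbx3, Tfcp2l1, Zfp42, Nr0b1, Sall4 and Prdm14. They are 10 of 51826 genes in the count files, and all 10 had reads in each of 72 libraries. The libraries came from E14TG2a, a line of mouse embryonic stem cells (mESCs) grown on gelatin in 2i + LIF medium, which holds serum, leukemia inhibitory factor (LIF), the GSK3 inhibitor CHIR99021 and the MEK inhibitor PD0325901. Cells were labeled with 4-thiouridine (4sU), a uridine analog that is built into RNA during labeling and read as C in place of T (T2C) after alkylation. Sequential detergent extraction gave cytosolic, membrane and nuclear fractions, and an aliquot taken before extraction gave whole cells, with 18 libraries each. Labeling lasted 15, 20 or 30 min in replicates 1 and 2. It lasted 20, 40, 60 or 120 min in replicates 3 and 4, whereas replicates 5 and 6 have 60 and 120 min. No group carried a genetic change, all cells were of a single line, and libraries without 4sU were not analysed here.

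Labels give a 4sU dose of 500 µM up to 40 min and 100 µM at 60 and 120 min for all replicates, while the methods of the study assign the higher dose to part of the longer labelings. At 60 and 120 min, dose and replicate pair cannot be told apart. The 120 min libraries of replicates 3 and 4 were set aside unless named, which left 64 libraries with 16 per fraction. Reads counted on genes ranged from 13185351 to 52975732 per library, and the conversion rate, the chance that a T of new RNA is read as C, from 2.07 to 12.2%. All 7 embryonic stem cell markers of the list (Pou5f1, Sox2, Nanog, Utf1, Dppa5a, Fgf4 and Lin28a) were above 1 normalized count per exon length in whole cells, with sums from 5080 to 11500. Sums over 4 markers each were 0.942 to 4.49 for primitive endoderm, 2.18 to 10.6 for mesendoderm, 9.83 to 31.7 for neural cells, 1.57 to 10.5 for fibroblasts or feeders and 0.711 to 3.97 for 2-cell-like cells. The sum of 14.0 to 78.5 for trophoblast came from Tfap2c, with Cdx2 and Elf5 below 1 in every whole-cell library.

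In the mouse epiblast before implantation, and in mESCs held in 2i + LIF, a set of transcription factors maintains naive pluripotency, the state from which all tissues of the embryo can still form. LIF acts through Stat3 and induces Klf4, Klf5 and Tfcp2l1, while inhibition of GSK3 relieves repression by Tcf7l1 of Esrrb, Klf2 and Tfcp2l1. When the signals are withdrawn these factors are lost early on the way to the formative and primed states. How fast an mRNA can be lost or replaced depends on how long it stays in the nucleus and in the cytoplasm, and the share of new RNA over labeling time is a readout of this turnover.

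Klf2 (chr8:72319033-72321656, plus strand), Klf4 (chr4:55527143-55532466, minus strand) and Klf5 (chr14:99298691-99315036, plus strand) encode Krüppel-like zinc finger factors that bind many of the same sites. Esrrb (chr12:86361117-86521628, plus strand) encodes an orphan nuclear receptor and Nr0b1 (chrX:86191764-86195947, plus strand) encodes Dax1, a nuclear receptor family member without a DNA-binding domain. Tfcp2l1 (chr1:118627945-118685168, plus strand) encodes a grainyhead-like CP2 factor and Tbx3 (chr5:119670669-119684724, plus strand) a T-box factor. Zfp42 (chr8:43295063-43306980, minus strand) encodes the zinc finger protein Rex1, a common marker of the naive state. Sall4 (chr2:168748332-168767943, minus strand) encodes a spalt-like zinc finger protein, and Prdm14 (chr1:13113457-13127163, minus strand) a PR domain factor that represses FGF signaling and de novo DNA methylation. Coordinates are in GRCm38. The genes differ widely in extent, from 2.62 kb for Klf2 to 161 kb for Esrrb. An antisense gene, Tbx3os1, overlaps Tbx3 and a transcript on the other strand, Gm14261, overlaps Sall4, and 3 small annotated genes lie within Tfcp2l1. Libraries were strand-specific, but whether counting used the strand is not given in the sources used here, so reads of these overlapping genes may be included. Zfp42 has an annotated processed pseudogene, which makes its counts uncertain to the extent that reads match both.

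AU-rich elements in 3′UTRs are known to shorten the life of many mRNAs, so the 3′UTRs of the principal transcripts were searched on the sense strand for ATTTA and for the longer TATTTAT, which contains it. ATTTA occurred in 9 of 10 members, all except Zfp42, and in 68.5% of 10577 genes with a 3′UTR. TATTTAT occurred in 4 members, Klf2, Klf5, Tbx3 and Tfcp2l1, and in 28.9% of the genes. Per length, Nr0b1 held the most ATTTA of the members, 5.68 per kb against a median of 1.31 over genes, and Klf2 the most TATTTAT with 1.36 per kb. Windows of 21 bases around one ATTTA (capitals) are shown for the 4 members with TATTTAT and, for contrast, for Klf4 and Nr0b1, which hold ATTTA alone, in Gencode M21 on GRCm38. Esrrb, Sall4 and Prdm14 also hold ATTTA alone, and their windows are not shown. Klf2, Klf4, Klf5 and Tbx3 had high shares of new RNA, as described later. Tfcp2l1 and Nr0b1 had lower ones than these members. Among all measured genes, their median percentiles over 16 cytosolic libraries were 57.7 and 67.7. A match is a description of letters and its part in turnover was not tested.
Klf2 (chr8:72320992-72321012, plus strand): agactgctATTTAttggacct
Klf4 (chr4:55527262-55527282, minus strand): taatataaATTTAagcaaact
Klf5 (chr14:99314663-99314683, plus strand): ttatcattATTTAttttgtgg
Tbx3 (chr5:119684004-119684024, plus strand): gacaaagtATTTAtgtaatta
Tfcp2l1 (chr1:118677914-118677934, plus strand): ctggagctATTTAtttgtgcc
Nr0b1 (chrX:86195893-86195913, plus strand): caaataaaATTTAtaatatta

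All 10 factors were well expressed, and their levels spanned a wide range. Normalized expression, counts per kb of exon scaled to the same sum in every library, was compared in whole cells over 16 libraries as mean ± SD. Zfp42 was highest with 844 ± 234 (n = 16) and was above the next gene in 16 of 16 libraries. Esrrb followed with 290 ± 111 (n = 16) and Klf4 with 280 ± 130 (n = 16), and these neighbours did not differ beyond their spread, since Esrrb was above Klf4 in 8 of 16 libraries. Klf2 had 221 ± 79.7 (n = 16), lower than Klf4 in 13 of 16 libraries and above Nr0b1 in all 16. Nr0b1 with 144 ± 56.3 (n = 16) and Tfcp2l1 with 133 ± 41.7 (n = 16) overlapped, as did Sall4 with 102 ± 54.9 (n = 16) and Tbx3 with 86.5 ± 35.1 (n = 16). In each of these pairs the first gene was higher in 10 of 16 libraries. Klf5 had 49.7 ± 25.1 (n = 16) and Prdm14 34.1 ± 9.48 (n = 16), with Klf5 higher in 12 of 16. Among 15576 genes tested, the members ranked from percentile 73.9 for Prdm14 to 99.3 for Zfp42. In whole cells and in nuclei, the 60 min library of replicate 5 was lowest per length for 10 of 10 members. By CPM (library-scaled counts without length) it was lowest for 8 and 6 of 10. On both scales, the library most often lowest was that of 60 min of replicate 3 in the cytosol (6 of 10). In the membrane fraction it was that of 120 min of replicate 5 (5 of 10). Lowest libraries were not counted over all genes, so this is not shown to be particular to the members. In bulk libraries such as these, fewer cells that express a gene and less RNA per cell cannot be told apart.

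**Figure D1:**
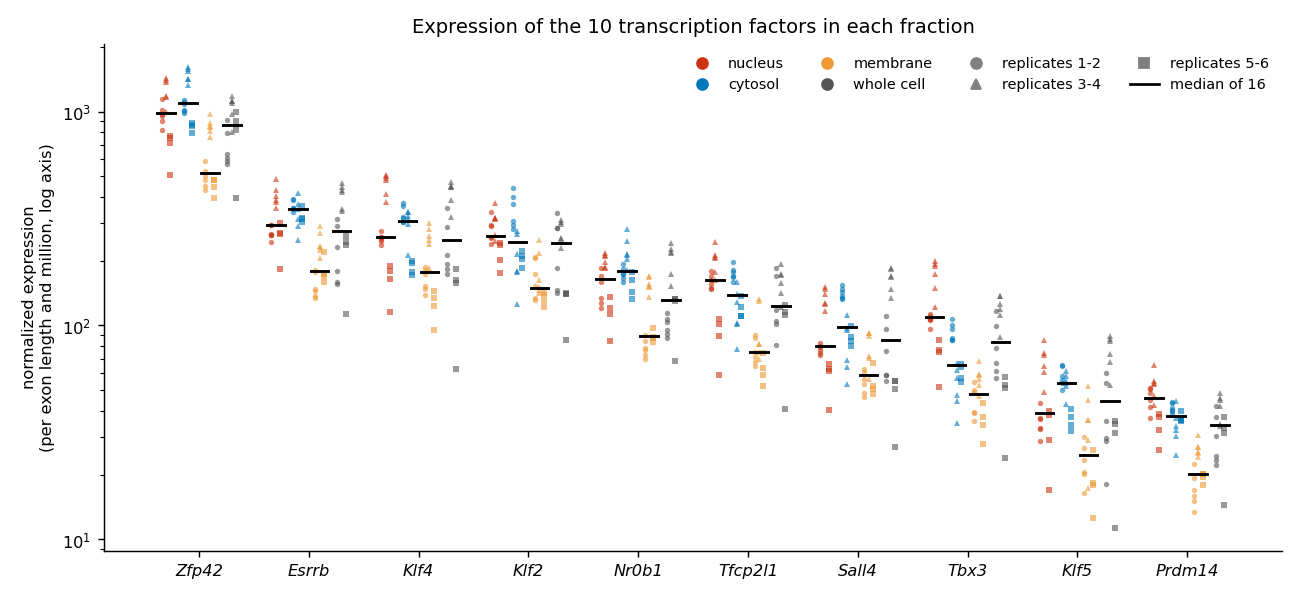
Normalized expression per exon length (log axis) of the 10 genes in 16 libraries each of nucleus, cytosol, membrane and whole cells. Points are libraries with a shape per replicate pair, and black bars are medians. Zfp42 is highest in all 4 fractions and Prdm14 is lowest in whole cells, while neighbours such as Esrrb and Klf4 overlap.

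By level, 5 of 10 members were lower in the nucleus than in the cytosol, and Tbx3 had the opposite sign. Zfp42 had 704, 773 and 1095 CPM in the cytosol (lowest, median and highest of 16 libraries) and 535, 611 and 787 CPM in the nucleus. Nr0b1 had 110, 128 and 173 CPM in the cytosol and 73.1, 100 and 129 CPM in the nucleus. Tbx3 had 87.0, 188 and 259 CPM in the cytosol and 193, 243 and 381 CPM in the nucleus. The ranges of both fractions overlapped for each of these genes, with the median higher in the cytosol for Zfp42 and Nr0b1 and higher in the nucleus for Tbx3. In edgeR's quasi-likelihood test with Benjamini-Hochberg adjustment over 15576 genes, where called genes have an adjusted p under 0.05 and differ by over 0.5 on the log2 scale in either direction, 5 of 10 members were called lower in the nucleus and none higher. Of all genes tested, 65.6% were called in this comparison, and 31.4% of all genes tested were called lower. The 5 members were Zfp42 (log2 fold change -0.73 ± 0.09, adjusted p = 8.7e-10), Nr0b1 (-0.72 ± 0.09, adjusted p = 6.85e-10), Sall4 (-0.67 ± 0.10, adjusted p = 6.46e-08), Klf5 (-0.66 ± 0.12, adjusted p = 2.27e-06) and Esrrb (-0.59 ± 0.06, adjusted p = 1.39e-11), with standard errors after each value. The log2 fold changes of the other members were -0.41 for Klf4, -0.37 for Klf2, -0.33 for Tfcp2l1, -0.22 for Prdm14 and 0.30 for Tbx3, all under the size needed. The median over members was -0.50 and over all genes -0.02. This fit, also used for membrane against cytosol, took the libraries of a fraction as independent, with no term for culture or replicate. For Esrrb, the log2 fold change within replicate pairs was -0.81, -0.07 and -0.51, further apart than its standard error.

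Fractions hold different total amounts of RNA, and these values are relative to the scaling of each library. Without the TMM step, by library size only, the median of all genes moved to 0.29, and no member was called lower while Tbx3 was called higher with 0.58. Lower calls over all genes made up 47.8% of calls with TMM, 32.4% by library size and 25.1% without a filter on low counts. Relative to the median of all genes the order held: 9 of 10 members, all but Tbx3, were below it under each scaling. The replicate pairs differed. Within replicates 1 and 2, 8 members were lower with log2 fold changes from -1.26 to -0.21 over the members (64.3% of genes called). Within replicates 3 and 4, Nr0b1 (-0.50) and Zfp42 (-0.64) were lower and Tbx3 (1.35) was higher (71.0% of genes called), while Sall4 turned to 0.37. Within replicates 5 and 6, 4 members were lower (53.9% of genes called). Leaving out replicate 1, 2 or 5 left no member called lower and Tbx3 called higher, with Tbx3 at 0.70, 0.71 and 0.61 and the median of all genes at 0.27, 0.27 and 0.29.

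Between membrane and cytosol 2 members were called. Klf5 (log2 fold change of level -0.52 ± 0.12, adjusted p = 0.000174) and Zfp42 (-0.53 ± 0.09, adjusted p = 2.8e-06) were called lower in the membrane fraction by edgeR's quasi-likelihood test. The other 8 members had log2 fold changes from -0.39 to -0.12 and were not called. Of all genes, 36.8% were called, with 12.6% lower and 24.2% higher, and the median was -0.16 over all genes against -0.38 over members. Scaled by library size only, the median of all genes moved to -0.48 with a median of -0.69 over members and 9 members called lower, and lower calls rose from 34.2% to 68.9% of calls. Without replicate 1 or without replicate 3 the lower calls among members were reduced to 1. Other genes of the pluripotency network gave a contrast: of 23 tested, 3 were called higher and 5 lower in the membrane fraction, led by Pecam1 (4.54) and Tdgf1 (3.24), which encode membrane proteins. In the nucleus, 4 of the 23 were called higher and 10 lower, with Pecam1 (1.99) and Fgf4 (1.70) furthest from 0.

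The share of new to total RNA, obtained as T2C counts over T counts and corrected by the conversion rate, was highest at short labeling in the cytosol for Klf2, Klf4 and Tbx3, with all values at 20 min above those of the other members. At 120 min, Klf2 had shares of 1.09 and 1.04 in the cytosol of replicates 5 and 6, and 0.930 and 0.858 in the nucleus. Klf4 had 1.01 and 0.963 in the cytosol and 0.870 and 0.799 in the nucleus, and Tbx3 0.906 and 0.889 in the cytosol and 0.824 and 0.809 in the nucleus. Klf5 had reached a like level by then, with 0.971 and 0.909 in the cytosol and 0.894 and 0.743 in the nucleus. These mRNAs were thus read as mostly or fully new after 120 min, and a share can exceed 1 because the conversion rate is an estimate for the library. Tfcp2l1 was far from this level, with 0.340 and 0.352 in the cytosol and 0.437 and 0.384 in the nucleus. Nr0b1 was lowest of the members, with 0.263 and 0.238 in the cytosol and 0.238 and 0.248 in the nucleus. The median over 11575 genes in the same libraries was 0.372 and 0.367 in the cytosol and 0.445 and 0.413 in the nucleus, so Tfcp2l1 lay close to it and Nr0b1 below it. Ranked against these genes, Klf2, Klf4 and Tbx3 were above percentile 90 in 16 of 16 cytosolic and 16 of 16 membrane libraries. In the nucleus, 8 of 10 members were above percentile 50 in every library. The exceptions were Tfcp2l1, from percentile 37.0 to 85.2, and Nr0b1, from 17.2 to 91.1.

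**Figure D2:**
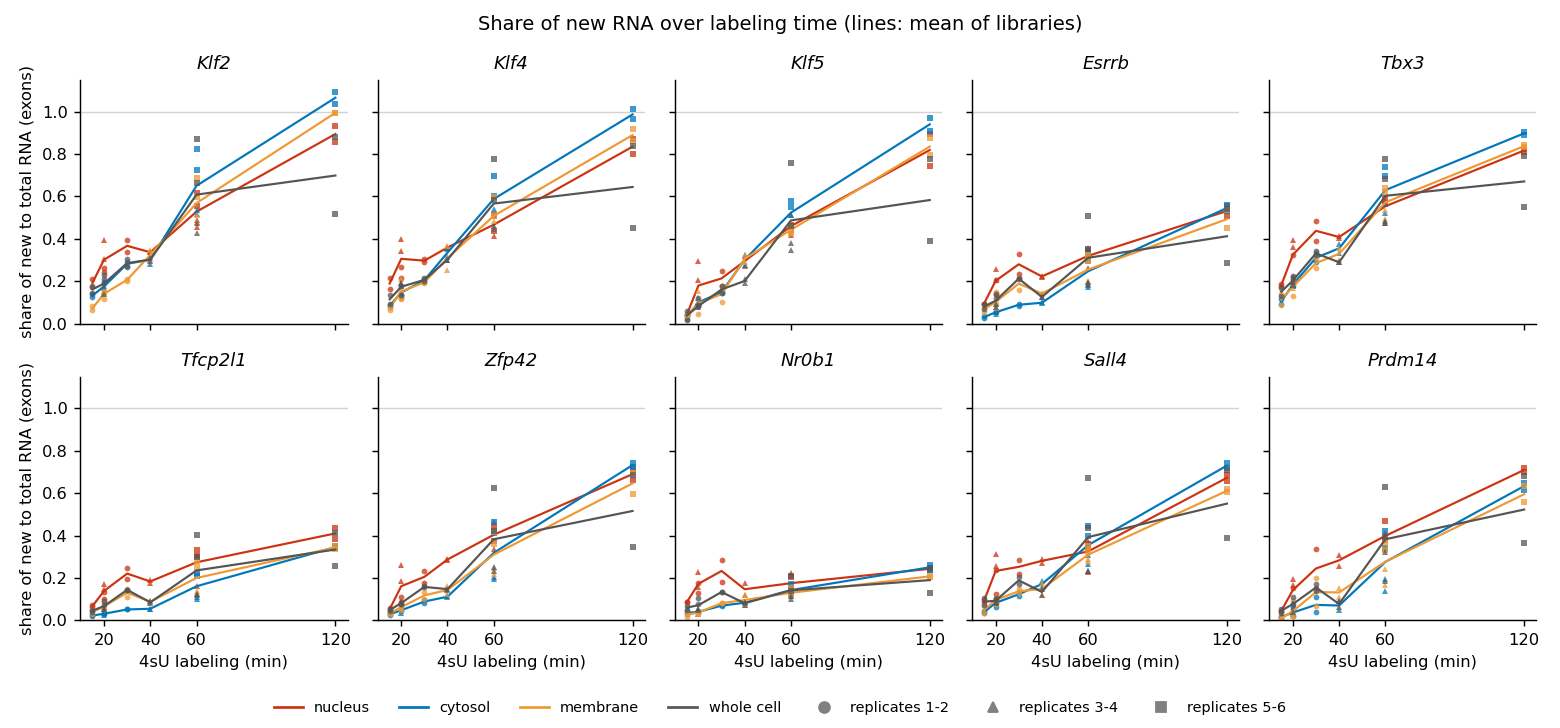
Share of new to total RNA from exons (y axis) over 4sU labeling time in min (x axis) for each gene, with a point per library and lines through means, in nucleus, cytosol, membrane and whole cells. Klf2, Klf4, Klf5 and Tbx3 approach 1 at 120 min, while Tfcp2l1 and Nr0b1 stay below 0.45 in every library.

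Apparent half-lives put these curves on 1 scale. They assume a first-order rise of the share after a delay of 5 min, were computed per library and are descriptions with no test. In the nucleus the median over 14 libraries was 40.5 min for Klf2, 43.1 min for Tbx3 and 50.3 min for Klf4. Klf5 (62.3 min), Prdm14 (65.6 min), Zfp42 (71.6 min), Sall4 (72.3 min) and Esrrb (87.5 min) lay in the middle, and Tfcp2l1 (103 min) and Nr0b1 (137 min) were longest. Each was below the median of 147 min over 11575 genes. In the cytosol, where a value includes the time spent in the nucleus, medians were 49.6 min for Tbx3, 51.4 min for Klf2, 55.6 min for Klf4 and 69.1 min for Klf5. A share of 1 or more gives no value, which left 12 of 14 cytosolic libraries for Klf2 and 13 of 14 for Klf4, so their medians leave out the fastest readings. Sall4 had 119 min, Zfp42 178 min, Esrrb 192 min, Prdm14 212 min, Nr0b1 265 min and Tfcp2l1 325 min, against 362 min over all genes. The ranges of Nr0b1 and Tfcp2l1 over libraries overlapped, at 40.0 to 300.0 min for Nr0b1 and 54.5 to 218 min for Tfcp2l1 in the nucleus. Their order differed between replicate pairs. The pairs also differ in labeling times, so culture and labeling time cannot be told apart in these medians. In the nucleus, the medians of Nr0b1 and Tfcp2l1 were 64.4 and 76.2 min in replicates 1 and 2, 137 and 110.0 min in replicates 3 and 4, and 254 and 122 min in replicates 5 and 6. In the cytosol they were 244 and 325 min, 277 and 371 min, and 256 and 173 min in the same pairs. Other cytosolic values were also lower in replicates 5 and 6, at 61.3 min for Zfp42 against 190.0 and 195 min in the other pairs, 79.5 min for Prdm14 against 305 and 277 min, and 101 min for Esrrb against 186 and 209 min. For Nr0b1, the nuclear exon share was 0.0855 and 0.0872 at 15 min in replicates 1 and 2. At 120 min in replicates 5 and 6 it was 0.238 and 0.248, and the intron shares of Nr0b1 were 0.938 and 0.817.

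The shares of new RNA in nucleus and cytosol were compared at 20 min, the only short time with 4 replicates. In the model of the study, the cytosolic share depends on turnover in the cytosol as well as on nuclear steps. The ratio is thus no measure of arrival alone. The share was higher in the nucleus for all 10 members, least for Klf2, Tbx3 and Klf5 and most for Tfcp2l1 and Nr0b1. Klf2 had 0.243, 0.263, 0.393 and 0.305 in the nucleus of replicates 1 to 4 and 0.197, 0.191, 0.147 and 0.166 in the cytosol. Tbx3 had 0.220, 0.324, 0.393 and 0.360 in the nucleus and 0.179, 0.193, 0.184 and 0.178 in the cytosol. For both genes the lowest nuclear library was above the highest cytosolic one. Klf5 had 0.0944, 0.122, 0.293 and 0.207 in the nucleus and 0.0838, 0.0893, 0.123 and 0.103 in the cytosol, and its groups overlapped, although the nuclear share was higher in each of the 4 cultures. Klf4 had 0.214, 0.266, 0.400 and 0.341 in the nucleus and 0.126, 0.136, 0.179 and 0.144 in the cytosol, without overlap.

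Among the slower members the difference was wider. Tfcp2l1 had 0.0990, 0.135, 0.174 and 0.148 in the nucleus and 0.0317, 0.0345, 0.0263 and 0.0330 in the cytosol. Nr0b1 had 0.130, 0.174, 0.229 and 0.157 in the nucleus and 0.0427, 0.0352, 0.0299 and 0.0533 in the cytosol. Esrrb had 0.138, 0.206, 0.258 and 0.205 in the nucleus and 0.0524, 0.0599, 0.0466 and 0.0526 in the cytosol. Each nuclear value of these 3 genes was above every cytosolic value. Zfp42 had 0.0874, 0.111, 0.260 and 0.187 in the nucleus and 0.0440, 0.0563, 0.0372 and 0.0540 in the cytosol. For Zfp42 too, the lowest nuclear value was above the highest cytosolic one. Prdm14 had 0.0535, 0.155, 0.195 and 0.168 in the nucleus and 0.0211, 0.0627, 0.0299 and 0.0339 in the cytosol, and its groups overlapped through replicates 1 and 2, with the nuclear share higher in each of the 4 cultures. Prdm14 had the fewest T2C counts of the members, down to 2 in a library. Sall4 had 0.125, 0.238, 0.313 and 0.258 in the nucleus and 0.0636, 0.0836, 0.0998 and 0.0833 in the cytosol, without overlap. Overlap was not counted over all genes, so a lack of it is not shown to be particular to the members. The median log2 ratio over all genes was also above 0 in each of the 4 cultures, from 0.86 to 2.13.

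By edgeR's quasi-likelihood test on T2C counts, with T counts and conversion rate as offset and Benjamini-Hochberg adjustment over 12373 genes, 10 of 10 members were called higher in the nucleus, as were 56% of all genes (56.2% called in either direction, 0.202% lower). The log2 ratio of shares was 0.78 ± 0.32 for Klf2 (adjusted p = 0.0289), 0.82 ± 0.31 for Tbx3 (adjusted p = 0.0159), 0.85 ± 0.38 for Klf5 (adjusted p = 0.0422) and 1.06 ± 0.30 for Klf4 (adjusted p = 0.00151), each ± SE. It was 1.5 for Sall4, 1.75 for Zfp42, 1.93 for Esrrb, 1.95 for Prdm14, 2.10 for Nr0b1 (adjusted p = 1.75e-06) and 2.14 for Tfcp2l1 (adjusted p = 2.46e-09). The median of all genes was 1.52, with 5 members below it, namely the 3 Klf genes, Tbx3 and Sall4. This fit took nucleus and cytosol of the same cultures as independent. Calls of the small ratios were fragile. Within replicates 1 and 2, 8 members were called (33.1% of genes), without Klf2 (0.38) and Klf5 (0.33), and within replicates 3 and 4 all 10 (58.3% of genes). Without replicate 2, 3 or 4, Klf2 was at 0.89, 0.55 and 0.75 and Klf5 at 0.95, 0.63 and 0.79, and neither was called. Tbx3 was not called without replicate 2 (0.85) or 4 (0.75). Of the other pluripotency genes, 15 of 21 tested were higher in the nucleus and none lower, led by Tcf7l1 (2.60) and Stat3 (2.41).

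**Figure D3:**
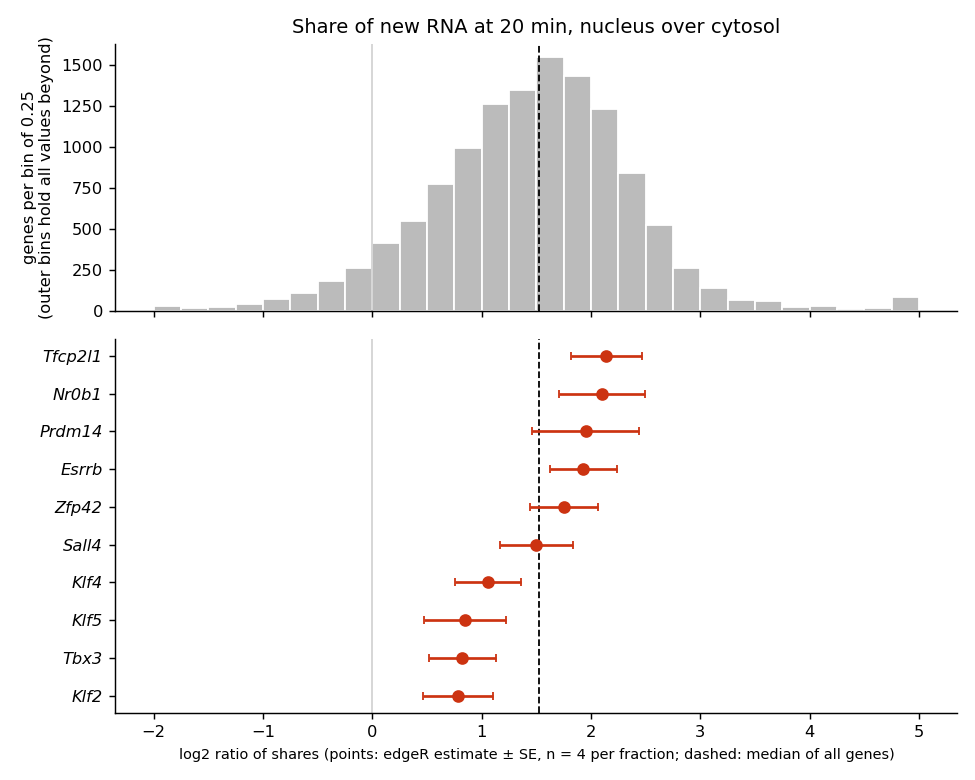
Upper panel, number of genes per bin of the log2 ratio of the share of new RNA in nucleus over cytosol at 20 min, for 12373 genes. Lower panel, edgeR estimates ± SE for the 10 members (n = 4 libraries per fraction), with the median of all genes, 1.52, as a dashed line and the Klf genes and Tbx3 to its left.

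With longer labeling the ratio turned for part of the members. At 60 min the nuclear share was below the cytosolic share in 4 of 4 cultures for Klf2, Klf4 and Klf5, with log2 ratios from -0.47 to 0. At 120 min it was below in both cultures of replicates 5 and 6, at -0.27 and -0.23 for Klf2, -0.27 and -0.22 for Klf4 and -0.29 and -0.12 for Klf5. At 120 min it was also below in both cultures for Tbx3 (-0.14 in both), Sall4 (-0.17 and -0.06), Zfp42 (-0.13 and -0.05) and Esrrb (-0.06 and -0.01), which makes 7 of 10 members. Tfcp2l1 and Prdm14 kept the higher share in the nucleus in all 4 cultures at 60 min and both at 120 min. For Tfcp2l1 the log2 ratio at 120 min was 0.12 and 0.36, and for Prdm14 0.14 and 0.18. Over all genes, the median log2 ratio stayed above 0, at 0.11 and 0.19 in the same cultures. Each share is corrected by its own library's conversion rate, which at every labeling time was lower in cytosol than in nucleus of the same culture. At 20 min the rate was 2.151 to 3.019% in cytosol against 2.585 to 3.558% in nucleus over replicates 1 to 4. At 120 min it was 3.26 against 3.806% in replicate 5 and 3.364 against 3.955% in replicate 6. The part of these rates in the ratios at 20 min and in their later turn was not tested. These ratios within cultures are descriptions with no test.

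Membrane and cytosol were compared at 60 min, when most members had enough T2C counts in both. None of the 10 members was called by edgeR's quasi-likelihood test, with log2 ratios of shares from -0.23 for Klf5 to 0.32 for Tfcp2l1, while 12.2% of 12521 genes were, 2% higher and 10.2% lower. Tfcp2l1 had shares of 0.139, 0.131, 0.281 and 0.251 in the membrane fraction of replicates 3 to 6 and 0.109, 0.103, 0.224 and 0.209 in the cytosol. It was higher in the membrane in 4 of 4 cultures, with an adjusted p of 0.0549 and a 95% interval of the log2 ratio from 0.10 to 0.55. For Klf2 the interval was -0.42 to 0.06 and for Zfp42 -0.19 to 0.24. Within replicates 3 and 4 (6.62% of genes called) and within replicates 5 and 6 (14.0% of genes called) no member was called. The level of the shares depended on the pair: Zfp42 had 0.203 and 0.194 in the cytosol of replicates 3 and 4 and 0.466 and 0.412 in that of replicates 5 and 6, and the median of all genes was 0.0924 and 0.0929 against 0.206 and 0.182. Of 22 other pluripotency genes tested, 2 were called, Pecam1 (-1.75) and Tdgf1 (-1.50), both lower in the membrane fraction.

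Introns stand for pre-mRNA, and exons in the nucleus for pre-mRNA and spliced mRNA together. The libraries hold poly(A) RNA, for which the study reads intron loss as maturation after polyadenylation and not as the splicing rate. In nuclei at 20 min the intron share was above the exon share in 4 of 4 libraries for each of the 10 members. Klf2 introns had 0.809, 1.17, 1.08 and 1.07 in replicates 1 to 4, and Klf5 introns 1.01, 0.935, 1.19 and 1.05, so both were at or near complete labeling. Zfp42 introns had 0.236, 0.300, 0.485 and 0.385, and Prdm14 introns 0.214, 0.237, 0.478 and 0.374. Both pairs lay apart, with each Klf value above every value of Zfp42 and Prdm14. By edgeR's quasi-likelihood test the log2 ratio of intron over exon share ranged from 1.12 for Zfp42 (adjusted p = 0.00108), 1.13 for Tbx3 (adjusted p = 0.00178) and 1.19 for Prdm14 (adjusted p = 0.00924) to 2.54 for Klf5 (adjusted p = 7.34e-09). All 10 members were called higher, as were 85.3% of 11282 genes (85.4% called in either direction), whose median was 2.05. This fit took introns and exons of the same libraries as independent. Without replicate 4, Prdm14 was at 1.2 with an adjusted p of 0.0626. Of the other pluripotency genes 18 of 18 tested were called higher, led by Jarid2 (4.14) and Pou5f1 (3.62).

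Intron shares reached 0.5 in every nuclear library of a time point first at 15 min for Klf2, Klf4, Klf5 and Sall4. This was at 20 min for Esrrb, Tbx3, Tfcp2l1 and Nr0b1, and at 40 min for Zfp42 and Prdm14. At 15 min Zfp42 introns had 0.155 and 0.124, and Prdm14 introns 0.106 and 0.104, close to the median over 11117 genes of 0.142 and 0.127. Klf4 introns had 0.843 and 0.894 in the same libraries, above both. Not all intron shares rose throughout: Klf2 introns had 1.199 and 1.301 at 30 min in replicates 1 and 2, and 0.817 and 0.656 at 120 min in replicates 5 and 6. In nuclei, introns gave a median of 44.7% of the T counts of Zfp42 and 34.7% of those of Prdm14, against 5.52% for Klf2 and 32.8% over all genes, so that Prdm14 was close to the typical gene. In Klf5, introns gave 29.9% of the T counts, a like part, and the intron share was near 1 at 20 min. The part of the pseudogene, of introns kept in finished transcripts and of gene length in these shares was not tested.

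**Figure D4:**
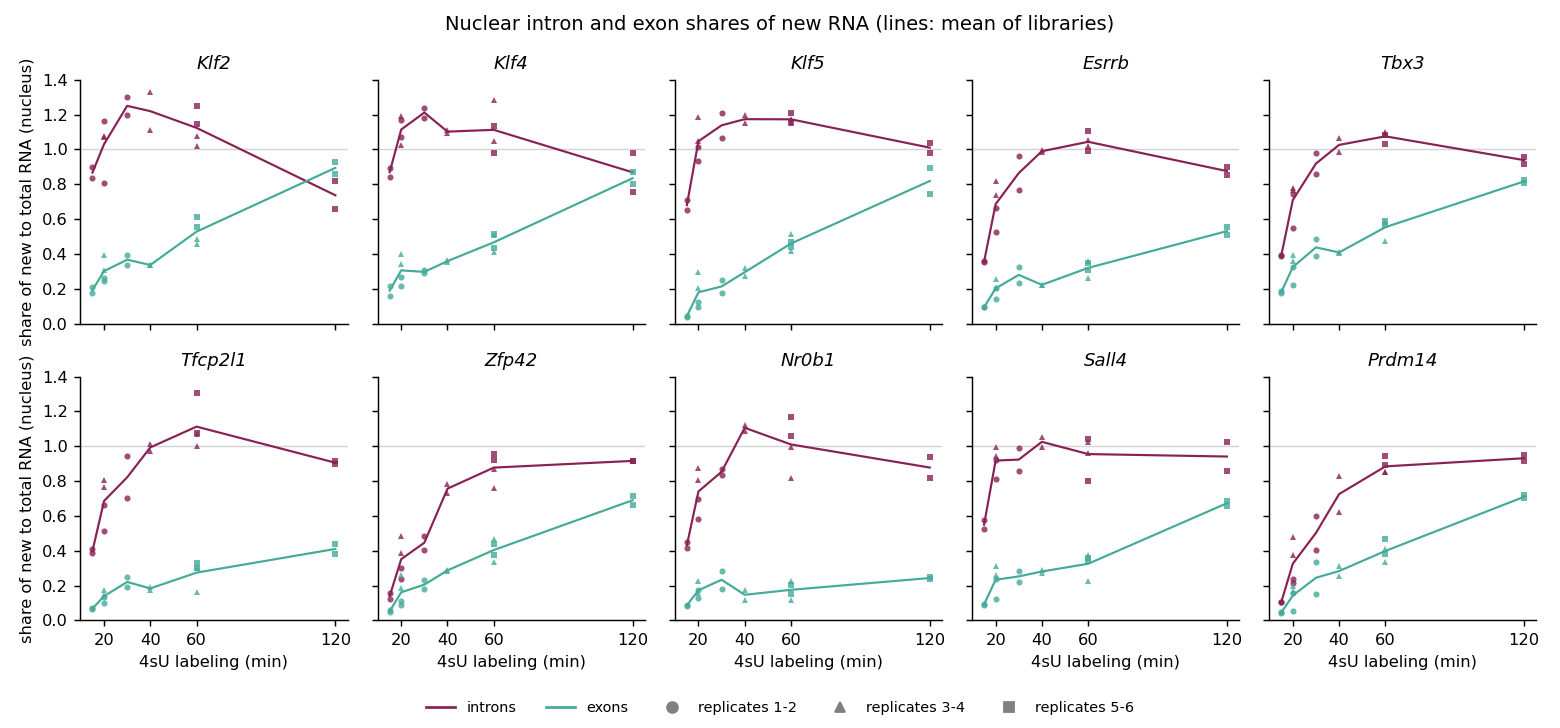
Nuclear share of new to total RNA from introns and exons (y axis) over 4sU labeling time in min (x axis), with points for 16 libraries and lines through means. Introns of Klf2, Klf4 and Klf5 lie between 0.656 and 1.33 from 20 min on, whereas introns of Zfp42 and Prdm14 pass 0.5 in every library only from 40 min.

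Along Esrrb, the longest member with 161 kb, new RNA appeared first in exons near the 3′ end. In nuclei at 20 min, the last exon, 1.4 kb from the 3′ end, had shares of 0.148 and 0.223 in replicates 1 and 2 and 0.263 and 0.215 in replicates 3 and 4. The exon at 51.3 kb had 0.0126 and 0.0112 in replicates 1 and 2 and 0.0647 and 0.0633 in replicates 3 and 4. The last exon was above the distant exon in each of the 4 libraries. At 60 min replicates 3 and 4 had 0.356 and 0.268 at 1.4 kb and 0.224 and 0.116 at 51.3 kb, a smaller gap than at 20 min in replicate 3 and a like gap in replicate 4. At 120 min replicates 5 and 6 had 0.559 and 0.509 at 1.4 kb and 0.465 and 0.366 at 51.3 kb. The fall with distance was not even: the exon at 6.73 kb had 0.446 and 0.310 at 20 min in replicates 3 and 4, above the last exon in both. This annotated exon contains a shorter one at 7.21 kb, which had 0.193 and 0.117 in the same libraries, below the last exon. In Tfcp2l1, the next longest member, exons at 3.89 and 20.2 kb were the only ones with enough T counts in every library.

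**Figure D5:**
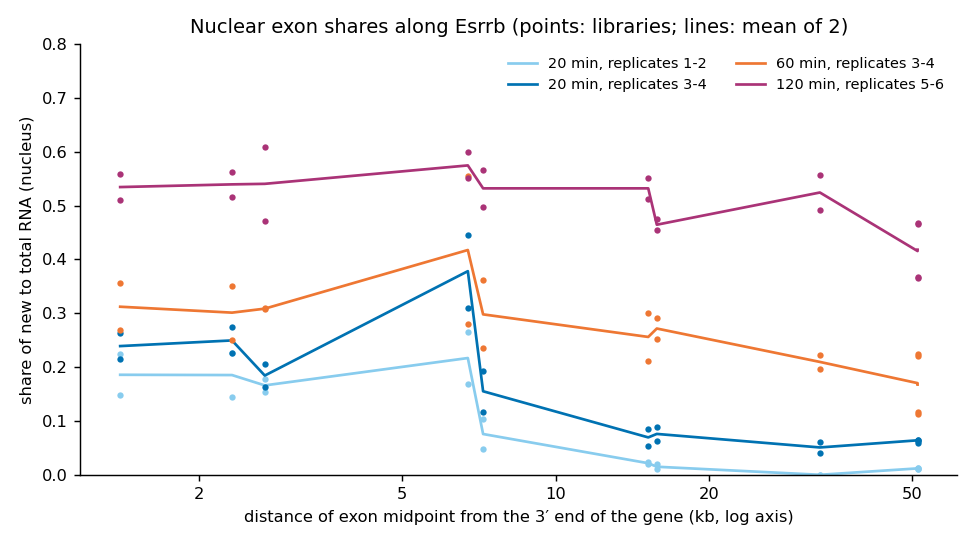
Nuclear share of new to total RNA of single Esrrb exons (y axis) by distance of the exon from the 3′ end in kb (log axis), with points for libraries and lines for means of 2. Shares at 20 min fall from over 0.14 in the last exon to under 0.07 at 51.3 kb, and the gap is smaller at 120 min.

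Levels of the members did not change detectably with labeling time in whole cells. In replicates 3 and 4, none of 10 members and 0 of 16858 genes (0%) were called at 60 against 20 min by edgeR's quasi-likelihood test, with 747 genes at an unadjusted p under 0.05 and 0 genes by DESeq2. In replicates 5 and 6, 0 genes (0%) were called at 120 against 60 min, with 123 genes at an unadjusted p under 0.05 and 0 by DESeq2. Members had log2 fold changes from -0.19 to 0.18 and from -0.15 to 0.38. The 60 and 120 min whole-cell libraries of replicate 6 have shares that go against their labeling times, as described further on, and without replicate 6, which leaves 1 library at each time from replicates 5 and 6, the comparison of 120 with 60 min also had 0 calls. At 120 against 20 min in replicates 3 and 4, 0.113% of genes were called (0.0712% higher, 0.0415% lower) and no member. Klf2 had 184 and 159 CPM at 20 min and 87.2 and 124 CPM at 120 min, without overlap, and the log2 fold change was -0.63 (adjusted p = 0.367, 95% interval -1.10 to -0.16). Klf4 had 478 and 439 CPM at 20 min and 326 and 310.0 CPM at 120 min, with a log2 fold change of -0.46 (adjusted p = 0.289, 95% interval -0.76 to -0.15). In nuclei, 2.91% of genes were called at 120 against 20 min (1.56% higher, 1.35% lower) and no member, with Klf5 (0.45) and Zfp42 (-0.37) furthest from 0. No gene of the other pluripotency network was called in any of these 4 comparisons.

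Whole-cell libraries differed more between replicate pairs than between labeling times. At 20 min in whole cells, 7 of 10 members were higher in replicates 3 and 4 than in replicates 1 and 2, and 10.4% of 16858 genes were called higher (22.3% in either direction). Sall4 had 141 and 194 CPM in replicates 1 and 2 and 338 and 306 CPM in replicates 3 and 4 (log2 fold change 0.99 ± 0.16, adjusted p = 0.000507). Klf5 had 41.2 and 99.5 CPM against 155 and 144 CPM (1.16 ± 0.26, adjusted p = 0.00511), and Esrrb 419 and 605 CPM against 902 and 794 CPM (0.78 ± 0.16, adjusted p = 0.00295). The groups did not overlap for these 3 genes. The other called members were Klf4 (0.73), Nr0b1 (0.68), Tbx3 (0.60) and Zfp42 (0.52), while Klf2 (0.03), Tfcp2l1 (0.36) and Prdm14 (0.33) were not called. Of 23 other pluripotency genes, 8 were called higher and 2 lower, led by Gbx2 (1.42) and Nanog (1.02).

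Without replicate 3, which leaves 1 library in that group, no member and 344 genes were called. The log2 fold changes were then 1.1 for Klf5, 0.91 for Sall4, 0.68 for Esrrb, 0.66 for Klf4, 0.58 for Tbx3, 0.48 for Nr0b1 and 0.46 for Zfp42, and the median over members was 0.53 against 0.64 with replicate 3. Without replicate 4, 4 members and 1454 genes were called. The other fractions of the same cultures gave 3 members higher in the nucleus (12.9% of genes called), 1 in the membrane fraction (23.5% of genes called) and 1 in the cytosol (39.4% of genes called). The median over members was 0.22 in the nucleus, 0.33 in the membrane fraction and -0.09 in the cytosol, against 0.64 in whole cells. In the cytosol 3 members were lower, Klf2 (-0.58), Tbx3 (-0.71) and Sall4 (-0.76), with Tbx3 and Sall4 opposite to whole cells. Over all times, every whole-cell library of replicates 3 and 4 was above every one of replicates 1 and 2 in CPM for 6 of 10 members and 15.6% of 16858 genes. Whole-cell libraries of replicates 5 and 6 were all below those of replicates 3 and 4 for 8 of 10 members and 14.8% of the genes, and the libraries of replicates 3 and 4 are shared by both counts. The summed level of the other pluripotency genes was 4550 to 6840 in replicates 1 and 2, 7080 to 8940 in replicates 3 and 4 and 3470 to 6780 in replicates 5 and 6. Other lists moved with it: formative and primed markers summed to 240.0 to 399 in replicates 1 and 2, at least 436 in replicates 3 and 4 and 132 to 283 in replicates 5 and 6, and mesendoderm markers to 2.18 to 5.51, 6.47 to 10.6 and 2.42 to 4.09 in the same order. Their part in the differences between replicate pairs was not tested. The pairs also differ in labeling times, and their part in this was not tested.

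One pair of libraries went against its labeling times. In whole cells of replicate 6, the share at 60 min was above that at 120 min for 10 of 10 members, and in the other fractions of replicate 6 and in all fractions of replicates 3, 4 and 5 for 0 of 10. Klf2 had 0.868 at 60 min and 0.515 at 120 min, and Prdm14 0.630 and 0.367. Over all genes, the median share was 0.374 at 60 min and 0.175 at 120 min in this replicate, and 0.220 and 0.388 in replicate 5. No test of shares used whole cells.

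Profiles of the share over 64 libraries were compared with those of 11575 genes by the root mean square difference. The nearest genes were Fam43a for Klf2 (0.0521), Btg1 for Klf4 (0.0479) and Pim1 for Tbx3 (0.0488). Nearest to the slower members were Ak4 for Esrrb (0.0266), Cdc25a for Zfp42 (0.0256), Rap2b for Sall4 (0.0342) and Ska3 for Prdm14 (0.0378). Tfcp2l1 was nearest to Etv5 (0.0195), an ETS factor of the other pluripotency list, and Nr0b1 to the histone gene H3f3b (0.0272). The median difference to all genes ranged from 0.0969 for Nr0b1 to 0.333 for Klf2.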

How the data were processed

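Poly(A)-selected, strand-specific paired-end libraries of 72 samples were used. The authors aligned reads with STAR 2.7.6 to GRCm38, counted reads on genes with HTSeq 0.11.1 and deposited these raw counts, along with counts of T positions and T2C conversions per gene for exons and introns after leaving out variants. The conversion rate of a library, which the authors inferred by a mixture of binomials, was deposited as a fraction. The deposited ratio is T2C over T, corrected by this rate. Recomputed from the counts, this ratio differed by at most 1.21e-13. HTSeq summary rows, 30.4 to 48.8% of reads, were left out.

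Levels were tested with the quasi-likelihood test of edgeR 4.0.16 (R 4.3.3), after filterByExpr and TMM scaling and with Benjamini-Hochberg adjustment over all genes. Shares were tested on T2C counts with the log of T counts times conversion rate as offset, for genes that reached 400 T counts in each library of the fit. The fit at 60 min had the replicate pair as a covariate. Counting reads without molecular identifiers limits how far counts are independent. Replicates were passaged independently, and fractions of the same number came from the same culture. In repeated whole-cell libraries the correlation of deviations between times was -0.088 to 0.282, and in nuclei 0.241 to 0.811.

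Members and lists were chosen with earlier results of these data known. Besides the members, the text names up to 2 called genes with the largest change per list and comparison, and the nearest gene by share, which for Klf5 is not reported here. Lists were other pluripotency genes, formative and primed markers, paralogs and cell type markers. DESeq2 1.42.0 and limma 3.58.1 were alternatives. Tested on simulated counts for nucleus against cytosol, edgeR called 200 of 200 genes with a simulated log2 fold change of 1.5, with 1 false call among 15001 genes. For whole cells at 120 against 20 min it called 143 of 200 with 4 false calls among 16160 genes, and for shares at 20 min 173 of 200 with 8 among 12368. The simulated libraries were independent, with the same dispersion for all genes and no difference between cultures or replicate pairs. These counts therefore do not give the error rate in data with such differences, or the recovery of smaller changes. Python 3.11.15 with pandas 2.3.3, numpy 2.4.6 and scipy 1.17.1 was used.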

Additional observations from a re-analysis of the deposited data

Results flagged for a closer look

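In nuclei at 20 min, the intron share of Tbx3 in replicate 1 was 0.549, far from the other 3 replicates, which lay between 0.746 and 0.777. In whole cells at 20 min, Tfcp2l1 had 333.0 CPM in replicate 1 and 544 to 560.0 CPM in the other 3. Of 60 groups of 4 libraries or more checked for such a distant library these were the 2 found, and chance gives about 1 in 20. The log2 ratio of the Zfp42 share in membrane over cytosol at 60 min was positive in both cultures of replicates 3 and 4, with a mean of 0.23, and negative in both of replicates 5 and 6, with a mean of -0.18. This difference between the pairs was not tested.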

How the results depend on the processing

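Alternatives were other scalings and tools, no filter on low counts, a replicate block, all 72 libraries, other T minimums, a subtracted background, limma and leaving out each replicate. Analyses within replicate pairs, and of other fractions for the comparison of cultures, were chosen after seeing the data. For the members' share in membrane against cytosol and for the comparisons of labeling times, all values kept their side of the threshold (120 checks and 60 checks each). For intron against exon shares, 109 of 110 did, and for the share in nucleus against cytosol 106 of 120, with 14 losing their call. For levels in nucleus against cytosol it was 101 of 150, in membrane against cytosol 133 of 150 and between cultures 68 of 100. Causes of changes were not tested. Low T2C counts, down to 2 for Prdm14 and 13 for Klf5, limit the shares at short times.

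For levels in nucleus against cytosol, no filter gave 15388 calls over all genes. Among members it gave 1 higher and 0 lower, as did library size only and all 72 libraries. Leaving out a replicate gave 0 to 1 higher and 0 to 6 lower. Within replicates 1 and 2 there were 8 lower, and within replicates 3 and 4 there were 1 higher and 2 lower, with Sall4 reversed to 0.37. For membrane against cytosol, library size only gave 10506 calls and 9 members lower, no filter 0 members lower and leaving out a replicate 1 to 2. Within the 3 replicate pairs 1, 1 and 0 members were lower. For shares, 4370 genes were called in nucleus against cytosol within replicates 1 and 2, and 845 in membrane against cytosol within replicates 3 and 4.

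For labeling times in whole cells, no filter gave 42 calls at 60 against 20 min, 49 at 120 against 60 min and 227 at 120 against 20 min, where DESeq2 gave 113 and leaving out replicate 3 or 4 gave 0. In nuclei at 120 against 20 min, DESeq2 gave 975 calls, no filter 1242 and leaving out a replicate 290 to 565. Replicates 3 and 4 carry the same number over times, and with the replicate block 31 genes were called in whole cells and 1803 in nuclei at 120 against 20 min, with no member. The block changed no other count by over 1.5 times. Between cultures, leaving out a replicate gave 344 to 4143 calls and 0 to 7 members higher. Nuclear libraries gave 2297 calls with 3 members higher, and cytosolic libraries 6411 with 1 higher and 3 lower. Membrane libraries gave 1 member higher. Tbx3 reversed to -0.71 in cytosolic libraries, and Sall4 to -0.76 in cytosolic and -0.02 in membrane libraries.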

Other observations

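Of 14 markers of the formative and primed states, which follow the naive state, 3 were called higher and 4 lower in nucleus against cytosol by level (13 tested), with Cdh2 at 1.66 and Lef1 at -0.86 on the log2 scale. In the membrane fraction 2 were higher, Cdh2 (4.00), which encodes N-cadherin, and Foxd3 (0.67), and 1 was lower. By share at 20 min, 6 of 10 tested were higher in the nucleus, among them Dnmt3b (1.68) and Etv4 (1.64), and none was called between membrane and cytosol. Introns were ahead of exons for 7 of 7 tested. Between cultures, 3 were higher in replicates 3 and 4 and 1 was lower, led by Etv4 (0.88) and Sox4 (-1.14).

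Of 29 genes of the same families as the members, 25 were tested by level, and 3 were higher and 7 lower in nucleus against cytosol, with Tbx2 (2.22) and Klf1 (-1.27) furthest. In the membrane fraction 2 were lower, Klf8 (-0.60) and Klf11 (-0.54). By share at 20 min, 15 of 21 were higher in the nucleus and none lower, and by introns 17 of 18. Between cultures 1 was higher, Tfcp2 (0.56), and 1 lower, Prdm1 (-1.98). None of either list was called between labeling times. All values are log2 fold changes from edgeR.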
